A study of Mus musculus with 12 samples.

Results

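CSF1R, its ligand CSF1 and 8 further growth factor receptor kinases were followed as transcripts in a mouse ovarian cancer line and a mouse macrophage line given rebastinib. The 10 genes were taken by name from a table of 55421 Ensembl gene identifiers: Csf1r, Csf1, Flt3, Kit, Pdgfra, Pdgfrb, Axl, Mertk, Met and Egfr. The groups, with 3 libraries each, were ID8 with 5 nM rebastinib for 6 h (ID8_R), ID8 control (ID8_C), PMJ2R with 5 nM rebastinib for 6 h (Mac_R) and PMJ2R control (Mac_C). ID8 is an epithelial line from ovarian surface, labelled C57BL6J wildtype and female. PMJ2R is a macrophage line from peritoneal lavage, labelled C57BL6J, female, with the v-raf and v-myc oncogenes, which its control libraries carry too. Each group stands for 1 cell line in culture, with serum in the medium of both and an ITS supplement in that of ID8, and no label states that replicates came from different dishes, so the spread behind each p-value may be technical. Rebastinib is a small-molecule kinase inhibitor developed against ABL1 and TIE2 that also acts on other kinases, FLT3 among them.

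Receptor tyrosine kinases sit in the plasma membrane, pair up when a ligand binds outside the cell and phosphorylate each other inside it, which recruits adaptors and starts RAS, PI3 kinase and STAT signalling. CSF1R, FLT3, KIT, PDGFRA and PDGFRB form the class III family. CSF1R maintains macrophages in answer to CSF1 or interleukin 34, FLT3 and KIT act in blood progenitors, and the PDGF receptors act in mesenchymal cells. AXL and MERTK belong to the TAM family, which binds phosphatidylserine through GAS6 or protein S and serves the uptake of dying cells, MET is the hepatocyte growth factor receptor, and EGFR binds the epidermal growth factor family.

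The 12 libraries held 19025504 to 27070556 counts, and a group total of 3 counts was taken as the floor of detection. Levels are given as CPM, counts scaled to library size with TMM factors. Marker counts and sums are the exception and used CPM by library totals. The lines carried their own markers. Of 26 macrophage markers, 19 reached 1 CPM in Mac_R and 20 in Mac_C, against 5 in ID8_R and 6 in ID8_C. Spi1, Tyrobp, Laptm5, Lyz2 and Adgre1 had no count in any ID8 library. In contrast, Cd14, Mpeg1, Lyn and Fcgr3 were among 7 macrophage markers with enough counts to be tested in ID8. C1qa, Cd163 and Timd4, which resident peritoneal macrophages can carry, had no count in either PMJ2R group. Of 26 ovarian surface and mesothelial markers, 18 reached 1 CPM in ID8_R and 24 in ID8_C, and none did in PMJ2R. By library totals, their summed level was 4885 to 4952 CPM in ID8_R, against 6443 to 6702 CPM in ID8_C. TMM factors, 0.851 to 0.916 in ID8_R and 1.17 to 1.20 in ID8_C, were not applied to these sums. Rebastinib libraries gave more of their counts to mitochondrial transcripts, 4.74% to 5.12% in ID8_R against 2.92% to 3.14% in ID8_C, and 5.51% to 5.88% in Mac_R against 3.50% to 4.25% in Mac_C. Genes overlapping ribosomal RNA took 1.05% to 1.60% in ID8_R against 0.106% to 0.355% in ID8_C, and 5.63% to 5.99% in Mac_R against 0.0927% to 0.172% in Mac_C. The part of these shifts in the results below was not tested.

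Most genes were called with rebastinib in either line, which sets the scale for every member. Among 14829 genes tested in ID8, 80.4% were called between ID8_R and ID8_C at an adjusted p under 0.05, 38.4% higher and 42% lower. Among 14010 genes tested in PMJ2R, 83.7% were called between Mac_R and Mac_C, 40.1% higher and 43.6% lower. A call alone therefore says little about a member, and the sizes below carry more. The calls also depended on scaling. With library totals in place of TMM factors, the median of all genes stood at -0.50 rather than -0.07 on the log2 scale in ID8 and at -0.60 rather than -0.05 in PMJ2R, and the share of called genes that were higher was 29.5% rather than 47.7% and 26.3% rather than 47.9%. With trends by transcript length and GC content removed, these medians were 0.11 and 0.08.

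**Figure D1:**
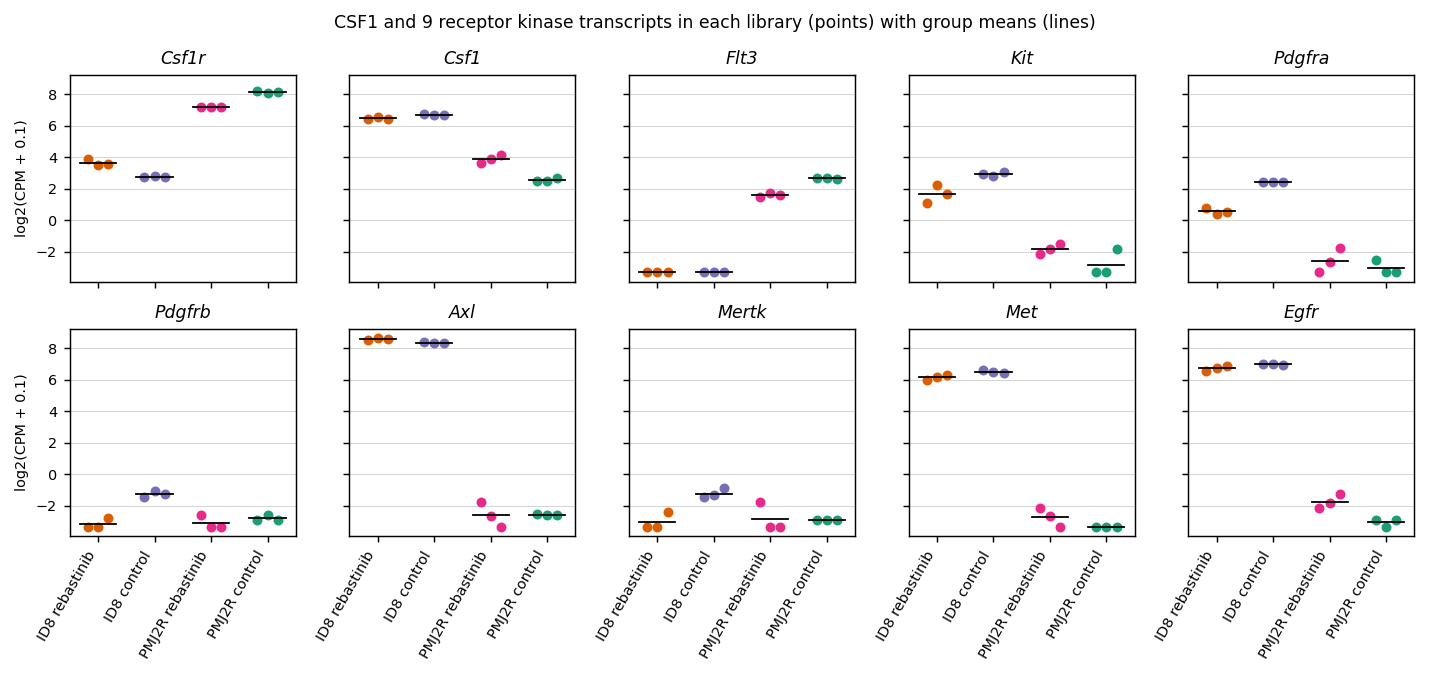
Each point is 1 library and each line a group mean, on a log2 scale of TMM-scaled CPM with 0.1 added, for ID8 rebastinib, ID8 control, PMJ2R rebastinib and PMJ2R control. Csf1r and Flt3 stand highest in PMJ2R, where rebastinib libraries lie below control libraries, while Csf1, Kit, Pdgfra, Axl, Met and Egfr stand highest in ID8.

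The untreated lines divided the receptors between them. The class III receptors Csf1r and Flt3 were macrophage transcripts, and Csf1, Axl, Met, Egfr, Kit and Pdgfra were tumour line transcripts. Between Mac_C and ID8_C, 82.3% of 15924 tested genes were called, 18.1% at least 2-fold higher and 25.6% at least 2-fold lower in Mac_C. Of the 8 members tested, 2 were higher and 6 lower in Mac_C. All 8 differed by more than 2-fold. Flt3, Met, Egfr, Axl, Pdgfra and Kit passed the filter on low counts only through the line where they were high. For them a large difference therefore followed from being tested. Pdgfrb and Mertk, low in both lines, were not tested.

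Csf1r had 290, 269 and 277 CPM in the Mac_C libraries, against 6.42, 6.88 and 6.45 CPM in the ID8_C libraries (log2 fold change 5.30, SE 0.0756, edgeR adjusted p = 4.32e-22). The ligand ran the other way: Csf1 had 5.50, 5.48 and 6.41 CPM in Mac_C, against 106, 101 and 100 CPM in ID8_C (-4.25, SE 0.0794, adjusted p = 1.80e-20). Neither gene's groups overlapped, as for 83.1% of genes tested. Flt3, the receptor of FLT3 ligand, had 541 counts in Mac_C and no count in any of the 6 ID8 libraries, so it was at least 162-fold higher in Mac_C against a floor of 3 counts over the ID8_C group.

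The member receptors that were tumour line transcripts were close to absent from PMJ2R. Axl had 2, 2 and 2 counts in the Mac_C libraries, against 8931, 8427 and 8943 in the ID8_C libraries. Met had no count in Mac_C, against 7318 counts in ID8_C, which makes it at least 2713-fold higher in ID8_C against the same floor. Egfr had 2 counts in Mac_C, against 10193 in ID8_C, a ratio of 5667 in favour of ID8_C with a 95% counting interval of 1569 to 46804. Kit, the stem cell factor receptor, had 5 counts in Mac_C, all in 1 library, against 611 in ID8_C. Pdgfra, which binds PDGF dimers on mesenchymal cells, had 2 counts in Mac_C, against 426 in ID8_C, a ratio of 237 in favour of ID8_C (interval 65.2 to 1962). Both TAM receptors among the members were thus near the floor in the macrophage line, since Mertk, an efferocytosis receptor of many tissue macrophages, had 3 counts in Mac_C and 27 in ID8_C. Pdgfrb, known from pericytes and smooth muscle, had 4 counts in Mac_C and 26 in ID8_C. These intervals and floors cover counting error only.

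The ligand genes also sat mostly with the tumour line: of 15 tested, 2 were higher, 12 lower and 1 not called in Mac_C. Il34, Pdgfc, Pdgfd, Tgfa, Areg, Ereg and Btc had at most 6 counts in Mac_C. They passed the filter on low counts through ID8_C alone, so their lower calls followed from being tested. Kitl was lower in Mac_C by 4.63 (log2 fold change -4.63) and Pdgfb by 5.33 (-5.33). Pdgfc, Tgfa and Ereg had no count in Mac_C and were at least 806-fold, 1415-fold and 523-fold higher in ID8_C. Pros1 was higher in Mac_C (1.80, SE 0.180, adjusted p = 1.47e-08), as was Flt3l (0.46, adjusted p = 0.0471), whose call was lost in 8 of 13 alternatives, among them without Mac_C replicate 1 or 3 or ID8_C replicate 1 or 2 (0.35 to 0.45).

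Genes named in this paragraph, apart from Erbb3, were picked for their large fold changes between the control lines. Their split therefore follows from that choice. Of 37 adaptors and effectors tested, 9 were higher and 20 lower in Mac_C. Of 25 negative regulators 8 were higher and 14 lower, beside 39.4% and 42.9% of all genes. Other receptor kinases gave 1 higher and 24 lower of 27, and myeloid partners of CSF1R 12 and 4 of 17. In both lists some genes, Flt4 and Spi1 among them, passed the filter on low counts through 1 line alone. Their calls followed from being tested. Spi1, which encodes the transcription factor PU.1, had 15096 counts in Mac_C and none in ID8_C, and Inpp5d, the lipid phosphatase SHIP1 of blood cells, had 24777 counts in Mac_C and 1 in ID8_C. Plcg2, a phospholipase below myeloid receptors, had 24502 counts in Mac_C and 4 in ID8_C. The docking protein genes Gab1 and Irs2 had no count in Mac_C, against 3611 and 6280 counts in ID8_C. Of the other receptor kinases, Flt4 had 1 count in Mac_C and 7042 in ID8_C, and Ptk7, a Wnt co-receptor, had 5 in Mac_C and 11830 in ID8_C. Erbb3 was not called, with 1364 counts in Mac_C and 1170 in ID8_C (-0.02, adjusted p = 0.855), but gave 0.78 with length and GC trends removed.

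Levels of different genes were ranked as CPM per kb of merged exon. In ID8_C, Axl led with 65.1 ± 2.11, followed by Csf1 with 19.4 ± 0.557 (SD, n = 3). Met with 11.9 ± 0.657 and Egfr with 11.2 ± 0.470 overlapped and cannot be ranked against each other. Csf1r with 1.14 ± 0.0441, Kit with 0.853 ± 0.0786 and Pdgfra with 0.530 ± 0.00416 came next, but with the longest transcript as the length Kit ranked above Csf1r. In ID8_R the order was Axl with 76.4 ± 3.16, Csf1 with 16.8 ± 0.992, Egfr with 9.43 ± 1.16 and Met with 9.36 ± 0.893, which again overlapped, then Csf1r with 2.16 ± 0.335, Kit with 0.362 ± 0.142 and Pdgfra with 0.138 ± 0.0204. In ID8_R, Csf1r ranked above Kit under both lengths.

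In the macrophage line Csf1r dominated. It stood at 25.3 ± 0.330 CPM per kb in Mac_R and 48.3 ± 1.81 in Mac_C, while Csf1 stood at 2.79 ± 0.509 and 1.10 ± 0.101 (SD, n = 3). Flt3 stood at 0.467 ± 0.0369 in Mac_R and 0.999 ± 0.0354 in Mac_C. In Mac_R, Csf1 lay above Flt3 under both lengths, but in Mac_C the order of these genes turned with the longest transcript as the length. Each of the other 7 members had at most 10 counts over the 3 libraries of a PMJ2R group.

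**Figure D2:**
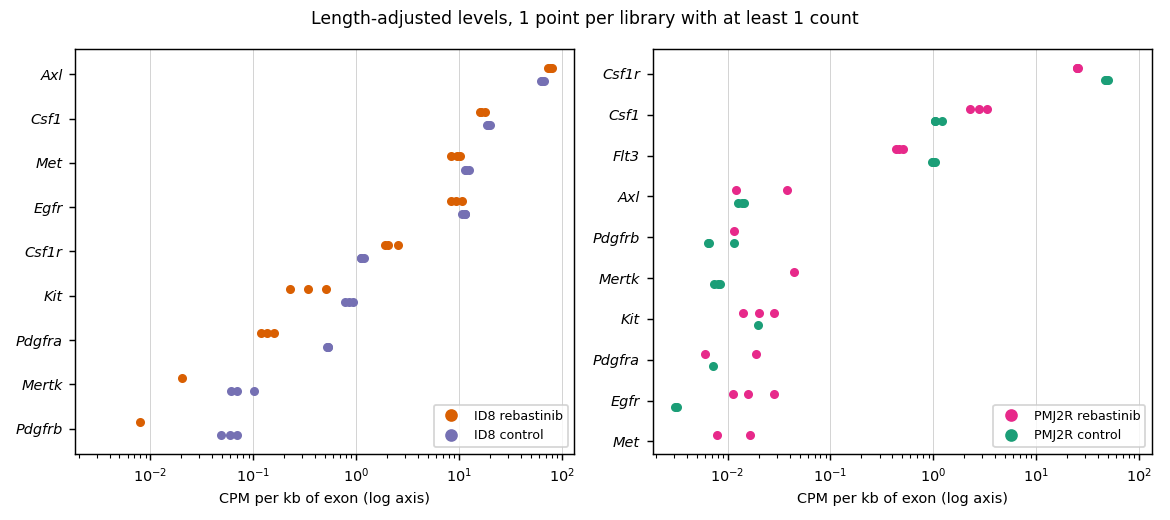
CPM per kb of merged exon on a log axis, 1 point per library with at least 1 count, for ID8 rebastinib and control libraries on the left and PMJ2R rebastinib and control libraries on the right. Axl leads in ID8 and Csf1r in PMJ2R, and the PMJ2R points under 0.1 rest on at most 5 counts in a library.

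Csf1r moved in opposite directions in the 2 lines. In ID8 it had 14.7, 11.1 and 11.7 CPM in the ID8_R libraries, against 6.42, 6.88 and 6.45 CPM in the ID8_C libraries. Every ID8_R library lay above every ID8_C library. Counting both directions, the groups did not overlap for 82.2% of genes tested in ID8. The rise of Csf1r was 1.90-fold (log2 fold change 0.93, SE 0.128, adjusted p = 1.08e-05). By library totals, the 26 macrophage markers summed to 48.7 to 54.8 CPM in ID8_R and 45.4 to 49.3 CPM in ID8_C, with 15 and 13 of them at 0 counts. In PMJ2R Csf1r had 148, 146 and 145 CPM in the Mac_R libraries, against 290, 269 and 277 CPM in the Mac_C libraries. Every Mac_R library lay below every Mac_C library. Counting both directions, the groups did not overlap for 84.4% of genes tested in PMJ2R. The change of Csf1r was -0.87 (SE 0.0466, adjusted p = 5.04e-12). The difference of the responses, PMJ2R minus ID8, was -1.85 (SE 0.120, adjusted p = 9.58e-12) in a fit over all 12 libraries in which 52.4% of 16566 genes were called. Across 14 alternatives per line the change ran from 0.49 to 1.45 in ID8 and from -1.43 to -0.23 in PMJ2R, the last value with length and GC trends removed, and was called in each. Csf1r still averaged 146 ± 1.90 CPM in Mac_R, beside 12.5 ± 1.93 CPM in ID8_R (SD, n = 3).

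Csf1r lies at chr18:61100598-61132149 on the plus strand of GRCm38 and shares 873 bases of exon with Hmgxb3, an HMG-box gene on the opposite strand. The strand setting of the counting is not given in the sources used here, so reads in those bases could belong to either gene. Hmgxb3 had 87.6, 79.2 and 88.0 CPM in Mac_R, against 49.9, 51.5 and 54.7 CPM in Mac_C, and it rose by 0.77 (SE 0.0573, adjusted p = 5.90e-10) while Csf1r fell. In ID8 it had 45.7, 45.9 and 46.6 CPM in ID8_R, against 41.0, 39.4 and 38.0 CPM in ID8_C, a change of 0.23 (SE 0.0733, adjusted p = 0.0102) that turned to -0.20 with library totals and lost its call without ID8_C replicate 3 (0.19, adjusted p = 0.0559). Its part in the ID8 value of Csf1r was not tested. Pdgfrb, the next class III receptor gene on that chromosome at a distance of 15.5 kb, had 1 count in ID8_R, against 26 in ID8_C, a ratio of 25.0 in favour of ID8_C (interval 4.11 to 1026).

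Csf1, which encodes the main growth factor of macrophages, rose in PMJ2R. It had 12.1, 14.5 and 17.5 CPM in the Mac_R libraries, against 5.50, 5.48 and 6.41 CPM in the Mac_C libraries. All 3 rebastinib libraries lay above the control libraries, where 84.4% of genes tested in PMJ2R did not overlap. The rise was 2.65-fold (log2 fold change 1.41, SE 0.127, adjusted p = 8.68e-09). In ID8 it had 87.0, 94.5 and 84.5 CPM in ID8_R, against 106, 101 and 100 CPM in ID8_C, a change of -0.20 (SE 0.0706, adjusted p = 0.0161) that was 0.27 with length and GC trends removed and missed the threshold with RLE size factors (-0.16, adjusted p = 0.0536), with DESeq2 (-0.16, adjusted p = 0.0595), without ID8_R replicate 3 (-0.15, adjusted p = 0.0630) and without ID8_C replicate 1 (-0.19, adjusted p = 0.0647). The difference of the responses was 1.55 (SE 0.140, adjusted p = 2.40e-09). In PMJ2R receptor and ligand therefore moved apart, Csf1r lower and Csf1 higher in all 14 alternatives.

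Il34, which encodes the second CSF1R ligand, fell in ID8. It had 8, 5 and 9 counts in the ID8_R libraries, against 102, 106 and 105 counts in the ID8_C libraries. The groups did not overlap, as for 82.2% of genes tested in ID8, and the log2 fold change was -3.33 (SE 0.249, adjusted p = 1.76e-08). PMJ2R held no Il34 count with rebastinib and 1 in control.

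Flt3, found in PMJ2R alone, fell there with rebastinib. It had 42, 52 and 45 counts in the Mac_R libraries, against 169, 202 and 170 counts in the Mac_C libraries, or 2.67, 3.12 and 2.86 CPM against 6.15, 6.40 and 5.96 CPM. The libraries of the groups did not overlap, as for 84.4% of genes tested in PMJ2R. The change was -1.03 (SE 0.143, adjusted p = 2.62e-06), between -1.59 and -0.55 over 13 alternatives. Flt3l, its ligand, fell in the same libraries, with 8, 15 and 11 counts in Mac_R, against 63, 59 and 74 counts in Mac_C (-1.60, SE 0.268, adjusted p = 2.59e-05). In ID8, which lacked the receptor transcript, Flt3l had 15, 17 and 10 counts in ID8_R, against 35, 34 and 52 counts in ID8_C (-1.02, SE 0.328, adjusted p = 0.0106), but the call was lost without ID8_R replicate 3 (-0.68, adjusted p = 0.0607) or ID8_C replicate 3 (-0.82, adjusted p = 0.0609). Flt3l shares 856 bases of exon with Gm45713 on the same strand, so its values are uncertain. Its response did not differ past the threshold between the lines (-0.63, SE 0.452, adjusted p = 0.256).

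Kit and Pdgfra, neighbours on chromosome 5 with 377 kb between them, had the largest falls among the tested members in ID8. Kit had 37, 76 and 70 counts in the ID8_R libraries, against 198, 184 and 229 counts in the ID8_C libraries. Pdgfra had 29, 20 and 31 counts in ID8_R, against 139, 140 and 147 counts in ID8_C. Neither gene's groups overlapped in CPM, as for 82.2% of genes tested in ID8. Kit changed by -1.25 (SE 0.207, adjusted p = 6.37e-05) and Pdgfra by -1.92 (SE 0.179, adjusted p = 1.68e-07), and both were called lower in every alternative run, 14 for Kit and 13 for Pdgfra. Pdgfra shares exon bases with Gm42802, Gm42803 and Mir7025, none of which had more than 3 counts in a group. In PMJ2R, Kit had 9 counts in Mac_R and 5 in Mac_C. At that depth the difference of its responses, 2.87 (SE 1.04, adjusted p = 0.0236), lost its call when 1 of 4 PMJ2R libraries was left out: Mac_R replicate 2 (2.89, adjusted p = 0.0548), Mac_R replicate 3 (2.60, adjusted p = 0.102), Mac_C replicate 1 (2.35, adjusted p = 0.0584) or Mac_C replicate 2 (2.26, adjusted p = 0.0648).

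The ligands of these receptors moved in both directions in ID8. Kitl, which encodes stem cell factor, had 98.2, 100 and 133 CPM in ID8_R, against 82.1, 86.2 and 76.7 CPM in ID8_C (0.44, SE 0.103, adjusted p = 0.00121), and with library totals the value was 0.01 (adjusted p = 0.916). Of the PDGF ligands, which bind the PDGF receptors as dimers, Pdgfa and Pdgfc rose while Pdgfb and Pdgfd fell. Pdgfa had 49.7, 36.5 and 42.6 CPM in ID8_R, against 16.0, 15.8 and 16.2 CPM in ID8_C (1.43, SE 0.107, adjusted p = 1.79e-08). Pdgfb had 26.6, 22.0 and 28.4 CPM in ID8_R, against 81.1, 74.5 and 82.3 CPM in ID8_C (-1.62, SE 0.0932, adjusted p = 1.41e-09). Pdgfc had 52.8, 54.4 and 57.8 CPM in ID8_R, against 26.7, 28.8 and 25.9 CPM in ID8_C (1.03, SE 0.0796, adjusted p = 2.61e-08). Pdgfd had 10, 5 and 14 counts in ID8_R, against 32, 41 and 34 counts in ID8_C (-1.40, SE 0.320, adjusted p = 0.00104). Per kb of exon, Pdgfa with 13.8 ± 2.13 CPM led the PDGF genes in ID8_R, above Pdgfb with 6.17 ± 0.790, whereas in ID8_C Pdgfb with 19.1 ± 1.01 CPM led and Pdgfa stood at 5.13 ± 0.0741 (SD, n = 3). Pdgfa shares 813 bases of exon with 6330403L08Rik, a gene on the opposite strand, and Pdgfc shares 147 bases with the antisense gene Gm16000.

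In PMJ2R the PDGF and stem cell factor genes were low and responded differently. Pdgfa had 5.78, 6.19 and 6.87 CPM in Mac_R, against 8.52, 8.26 and 9.11 CPM in Mac_C (-0.40, SE 0.114, adjusted p = 0.00388), a call lost with length and GC trends removed (-0.16, adjusted p = 0.210). Pdgfb gave 0.20 (SE 0.213, adjusted p = 0.398) and Kitl -0.35 (SE 0.162, adjusted p = 0.0543), neither called. The difference of the responses, PMJ2R minus ID8, was called for each: -1.88 for Pdgfa (SE 0.160, adjusted p = 9.46e-10), 1.76 for Pdgfb (SE 0.229, adjusted p = 7.24e-07) and -0.85 for Kitl (SE 0.206, adjusted p = 0.00125). Pdgfc and Pdgfd had no count in PMJ2R.

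**Figure D3:**
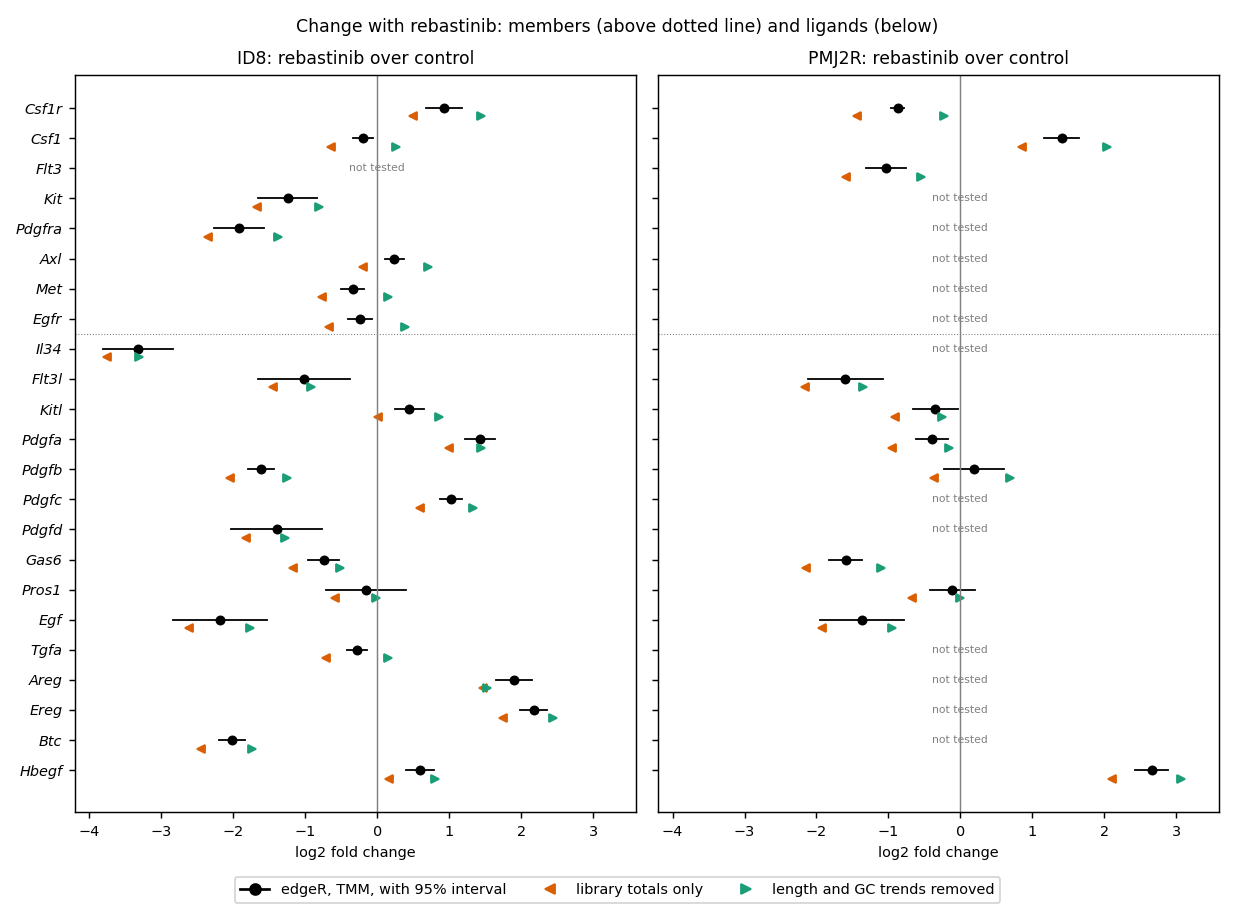
Log2 fold change of rebastinib over control in ID8 on the left and PMJ2R on the right, for members above the dotted line and ligand genes below it. Black points with lines are edgeR values with 95% intervals, orange triangles use library totals, and green triangles have length and GC trends removed. Csf1r lies right of 0 in ID8 and left of it in PMJ2R for all 3 markers, while Csf1, Axl, Met, Egfr and Tgfa in ID8 have markers on both sides.

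Axl, Met and Egfr, the most abundant receptors among the members in ID8, changed little. Axl had 370, 402 and 383 CPM in ID8_R, against 339, 318 and 326 CPM in ID8_C, a change of 0.24 (SE 0.0667, adjusted p = 0.00481) that turned to -0.20 with library totals and was 0.15 (adjusted p = 0.0515) when genes averaging under 5 CPM were left out. Met had 64.4, 73.3 and 77.9 CPM in ID8_R, against 97.0, 89.3 and 87.4 CPM in ID8_C, a change of -0.34 (SE 0.0815, adjusted p = 0.00152) that turned to 0.15 with length and GC trends removed. Egfr had 94.0, 106 and 120 CPM in ID8_R, against 129, 131 and 121 CPM in ID8_C, a change of -0.24 (SE 0.0856, adjusted p = 0.0168) that turned to 0.39 with those trends removed. Its call was also lost without ID8_R replicate 1 (-0.15, adjusted p = 0.0625), ID8_R replicate 2 (-0.23, adjusted p = 0.0636), ID8_C replicate 1 (-0.24, adjusted p = 0.0506) or ID8_C replicate 2 (-0.23, adjusted p = 0.0541). The groups did not overlap for any of these genes, as for 82.2% of genes tested in ID8. For Egfr the nearest libraries stood at 120 CPM in ID8_R and 121 CPM in ID8_C. Set against the median of all genes, Axl lay 0.31 above it with TMM factors, 0.30 above with library totals and 0.60 above with the trends removed. Met on that footing gave -0.27, -0.27 and 0.04, and Egfr gave -0.18, -0.17 and 0.27.

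The 250 bases before the RefSeq start of the transcript are shown for Axl and Egfr, both abundant in ID8, for Csf1, which is expressed in both lines, and for Flt3, which was counted in PMJ2R alone. Of the 10 members, 8 matched the RefSeq promoter table (GRCm38.p6). The Met and Kit windows reach into the annotated transcript and are not shown. Bases run 5′ to 3′ along the gene. Capitals mark matches, on either strand, to the GC box GGGCGG, the AP-1 element TGANTCA, the dioxin response core GCGTG, the PU.1 element GAGGAAG or the TATA box TATAAA, and no match overlapped another.
Axl, chr7:25788734-25788983, minus strand: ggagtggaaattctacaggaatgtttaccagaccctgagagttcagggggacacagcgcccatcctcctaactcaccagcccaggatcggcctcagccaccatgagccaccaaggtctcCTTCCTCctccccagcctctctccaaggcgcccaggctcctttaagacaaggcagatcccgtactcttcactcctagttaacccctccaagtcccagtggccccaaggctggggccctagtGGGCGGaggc
Egfr, chr11:16751953-16752202, plus strand: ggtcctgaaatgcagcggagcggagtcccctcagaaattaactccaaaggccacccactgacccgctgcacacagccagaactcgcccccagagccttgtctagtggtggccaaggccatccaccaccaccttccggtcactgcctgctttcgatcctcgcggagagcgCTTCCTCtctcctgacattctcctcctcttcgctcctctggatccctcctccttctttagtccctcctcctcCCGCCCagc
Csf1, chr3:107760470-107760719, minus strand: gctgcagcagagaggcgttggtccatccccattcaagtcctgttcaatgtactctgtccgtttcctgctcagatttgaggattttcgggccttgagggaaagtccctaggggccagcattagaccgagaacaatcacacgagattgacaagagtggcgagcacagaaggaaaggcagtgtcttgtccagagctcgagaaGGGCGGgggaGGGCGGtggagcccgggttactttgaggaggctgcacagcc
Flt3, chr5:147400490-147400739, minus strand: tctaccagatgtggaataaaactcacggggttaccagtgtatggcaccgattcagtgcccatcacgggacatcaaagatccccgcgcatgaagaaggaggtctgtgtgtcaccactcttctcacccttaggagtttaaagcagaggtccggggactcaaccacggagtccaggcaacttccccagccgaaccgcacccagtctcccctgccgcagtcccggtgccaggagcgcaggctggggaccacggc

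Axl held 1 GC box, 10 bases before the start, and 1 PU.1 match on the opposite strand at 131 bases. Egfr held 1 GC box at 9 bases and 1 PU.1 match at 81 bases, both on the opposite strand. Csf1 held 2 GC boxes, at 51 and 41 bases, and Flt3 held none of the 5 motifs. Of 27025 promoters of this length, 32.9% held a GC box, 10.4% the PU.1 letters, 28.2% the dioxin core, 13% a TATA box and 6.87% the AP-1 letters. A match to so short a motif is a description of the sequence only.

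Of the EGFR ligands in ID8, Areg and Ereg rose and Btc fell, each by more than 1.9 on the log2 scale. Areg, which encodes amphiregulin, had 18.1, 17.1 and 15.2 CPM in ID8_R, against 4.71, 4.87 and 3.86 CPM in ID8_C, and rose 3.75-fold (1.91, SE 0.127, adjusted p = 5.68e-09). Ereg, which encodes epiregulin, had 69.0, 85.3 and 83.1 CPM in ID8_R, against 18.3, 16.8 and 17.7 CPM in ID8_C, and rose 4.51-fold (2.17, SE 0.0936, adjusted p = 9.06e-11). Both were called higher in all 14 alternatives. Btc, which encodes betacellulin, a ligand of EGFR and ERBB4, had 26.8, 29.1 and 35.2 CPM in ID8_R, against 128, 124 and 120 CPM in ID8_C (-2.02, SE 0.0932, adjusted p = 1.73e-10). Per kb of exon the leading EGFR ligand was Ereg in ID8_R, with 19.2 ± 2.15 CPM beside 6.72 ± 0.959 for Btc, and Btc in ID8_C, with 27.4 ± 0.881 CPM beside 4.26 ± 0.184 for Ereg (SD, n = 3). Ereg shares 141 bases of exon with the antisense gene Gm19610.

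Egf itself was rare and fell, with 6, 9 and 6 counts in ID8_R, against 37, 48 and 51 counts in ID8_C (-2.19, SE 0.332, adjusted p = 2.76e-05). It shares exon bases with 2 antisense genes, 607 with Gm42697 and 500 with 6330410L21Rik. Tgfa had 38.6, 39.6 and 38.6 CPM in ID8_R, against 48.0, 48.0 and 46.7 CPM in ID8_C, a change of -0.28 (SE 0.0719, adjusted p = 0.00218) that turned to 0.15 with length and GC trends removed. Hbegf had 17.8, 18.4 and 20.1 CPM in ID8_R, against 12.5, 11.6 and 13.4 CPM in ID8_C (0.59, SE 0.1, adjusted p = 7.70e-05), with the call lost under library totals (0.16, adjusted p = 0.178). Epgn had 3 counts in ID8_R and 8 in ID8_C and was not tested.

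Hbegf, like Csf1, was called higher in PMJ2R. This heparin-binding ligand of EGFR and ERBB4 had 25.5, 28.3 and 25.6 CPM in the Mac_R libraries, against 3.46, 4.27 and 5.36 CPM in the Mac_C libraries, a 6.32-fold rise (2.66, SE 0.118, adjusted p = 3.83e-13). It was called higher in all 14 alternatives, and the difference of its responses was 2.01 (SE 0.165, adjusted p = 5.49e-10). Hbegf averaged 26.5 ± 1.61 CPM in Mac_R beside 18.8 ± 1.21 CPM in ID8_R (SD, n = 3), a difference that was not tested. Egfr had 10 counts in Mac_R and 2 in Mac_C, a ratio of 6.45 in favour of Mac_R (interval 1.38 to 60.6). The interval covers counting error only, and such shifts near the floor were not particular to Egfr. Counts in Mac_R and Mac_C were 16 and 3 for Tyro3 and 28 and 1 for Epha10. The other way, they were 3 and 28 for Ephb4 and 1 and 11 for Fgfr4. Egf fell in PMJ2R too, with 7, 9 and 11 counts in Mac_R, against 37, 45 and 51 counts in Mac_C (-1.37, SE 0.297, adjusted p = 0.000378), and its responses did not differ past the threshold (0.76, SE 0.479, adjusted p = 0.191). Areg, Ereg, Tgfa and Btc had at most 6 counts in a PMJ2R group.

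Gas6, the ligand that AXL and MERTK share, fell in both lines. It had 10.5, 13.4 and 12.9 CPM in ID8_R, against 19.4, 21.8 and 20.8 CPM in ID8_C (-0.75, SE 0.108, adjusted p = 1.80e-05). In PMJ2R it had 4.45, 3.96 and 5.22 CPM in Mac_R, against 14.5, 14.2 and 14.2 CPM in Mac_C (-1.59, SE 0.116, adjusted p = 4.35e-10). The fall was larger in PMJ2R by 0.90 (difference -0.90, SE 0.164, adjusted p = 6.12e-05). Pros1, which encodes protein S, gave -0.16 (SE 0.284, adjusted p = 0.611) in ID8 and -0.11 (SE 0.158, adjusted p = 0.525) in PMJ2R, neither called. Mertk had 2 counts in ID8_R, against 27 in ID8_C, a ratio of 13.0 in favour of ID8_C (interval 3.27 to 113). Hgf, the MET ligand, had no count in ID8 and 1 in PMJ2R.

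Over the 17 ligand genes, a list that leaves out the member Csf1, 15 were tested in ID8 and 6 were higher, 8 lower and 1 not called, their median being -0.28; with length and GC trends removed 7 were higher and 7 lower. In PMJ2R 8 were tested and 1 was higher, 4 lower and 3 not called, their median being -0.37, or 2 higher and 3 lower with these trends removed. Of the members, 7 were tested in ID8 and 2 were higher and 5 lower, with a median of -0.24 beside -0.07 for all genes, but 5 higher and 2 lower with length and GC trends removed and 1 higher and 6 lower with library totals. The 3 members tested in PMJ2R were Csf1r, Csf1 and Flt3, with 1 higher and 2 lower. For scale, 38.4% of all tested genes were higher and 42% lower in ID8 with TMM factors, and 40.1% and 43.6% in PMJ2R.

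**Figure D4:**
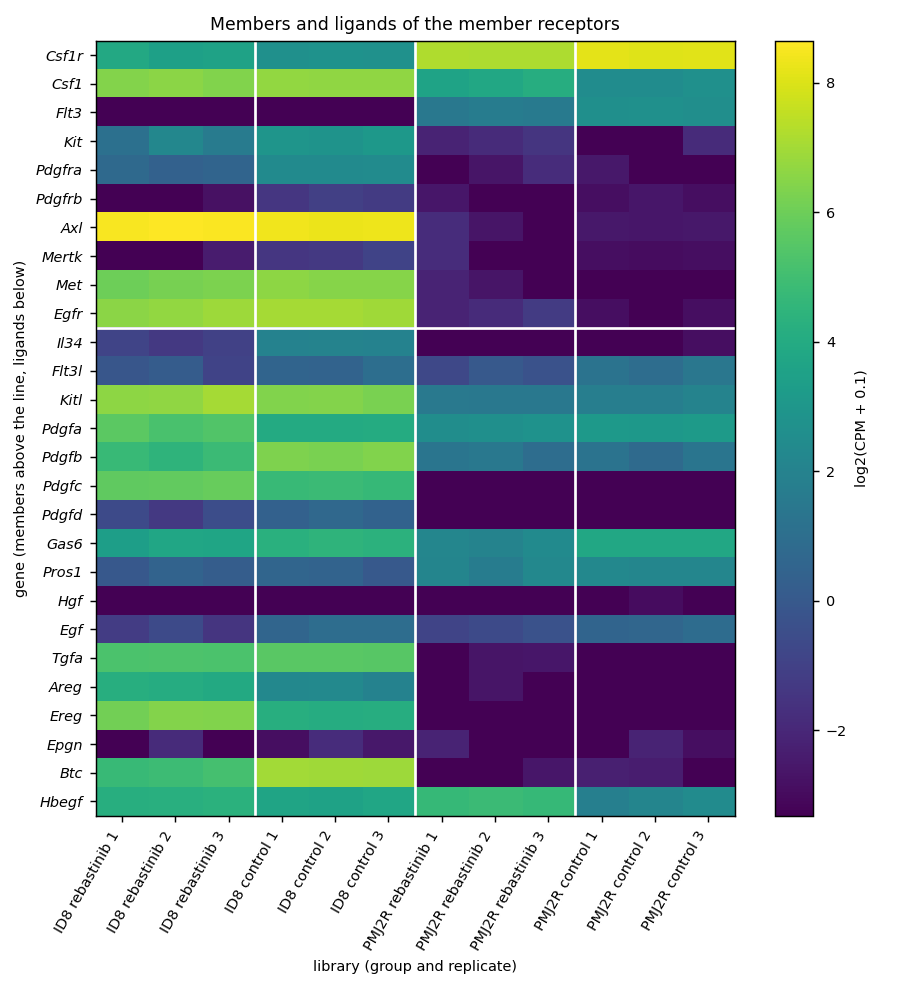
Each cell is the log2 of TMM-scaled CPM with 0.1 added, for the 10 members above the white line and the 17 ligand genes below it, in the 12 libraries ordered as ID8 rebastinib, ID8 control, PMJ2R rebastinib and PMJ2R control. Csf1r is brighter in PMJ2R and Axl in ID8, and in ID8 Ereg is brighter in rebastinib and Btc in control libraries.

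Among relatives of the members in ID8, more were called lower than higher, while 38.4% of all genes were higher and 42% lower. Of 46 other receptor tyrosine kinases, 26 were tested in ID8 and 5 were higher and 17 lower, their median being -0.76, or 9 higher and 13 lower with length and GC trends removed. The 5 called higher, named here after their values were seen, were Epha2, Epha4, Ephb3, Ryk and Styk1. Epha2 averaged 341 ± 9.75 CPM in ID8_R, against 215 ± 5.82 in ID8_C (0.67, SE 0.0642, adjusted p = 2.37e-07), and Ryk 157 ± 10.4 CPM in ID8_R, against 88.7 ± 1.51 in ID8_C (0.83, SE 0.0703, adjusted p = 6.41e-08). Erbb3, the EGFR relative with an impaired kinase, fell by 3.44 on the log2 scale to 1.30 ± 0.659 CPM in ID8_R, against 14.6 ± 1.20 in ID8_C (SE 0.223, adjusted p = 4.16e-09). Erbb2, the preferred partner of EGFR and ERBB3, stood at 10.2 ± 1.45 CPM in ID8_R, against 32.6 ± 2.13 in ID8_C (-1.66, SE 0.110, adjusted p = 5.28e-09). Tyro3, the remaining TAM receptor, stood at 7.47 ± 0.440 CPM in ID8_R, against 27.1 ± 2.46 in ID8_C (-1.85, SE 0.107, adjusted p = 1.45e-09). 

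Flt4, the VEGF-C receptor of lymphatic endothelium, stood at 20.7 ± 2.63 CPM in ID8_R, against 87.8 ± 5.61 in ID8_C (-2.08, SE 0.0959, adjusted p = 1.71e-10). Mst1r, the MET relative that binds macrophage-stimulating protein, stood at 25.2 ± 3.06 CPM in ID8_R, against 42.9 ± 1.75 in ID8_C (-0.76, SE 0.0942, adjusted p = 3.49e-06). In PMJ2R 8 of the 46 were tested, 2 higher and 5 lower, or 2 and 3 with length and GC trends removed, and the median was -0.60. All genes tested there gave 40.1% higher and 43.6% lower. Epha2, an ephrin receptor, rose to 114 ± 4.48 CPM in Mac_R, against 21.4 ± 1.44 in Mac_C (2.48, SE 0.0598, adjusted p = 2.20e-16), and Ryk, a Wnt receptor, rose by 1.25 (SE 0.0553, adjusted p = 3.83e-13). Insr, the insulin receptor, fell by 1.21 (SE 0.0705, adjusted p = 1.73e-11), and Epha6 fell by 2.60 (SE 0.198, adjusted p = 7.82e-10). Erbb3 fell in PMJ2R as well, with 5.64 ± 0.297 CPM in Mac_R, against 15.5 ± 1.79 in Mac_C (-1.40, SE 0.117, adjusted p = 2.90e-09), while Erbb2 had 8 counts in Mac_R and 2 in Mac_C.

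Below the receptors, genes for adaptors and effectors were called higher more often than lower with TMM factors, 19 against 11 of 36 tested in ID8 and 20 against 8 of 33 in PMJ2R, but 9 against 20 and 10 against 19 with library totals, and 27 against 8 and 25 against 6 with length and GC trends removed. Their medians were 0.21 and 0.39. With TMM factors, 38.4% of all genes were higher and 42% lower in ID8, and 40.1% and 43.6% in PMJ2R. Grb2, the adaptor that brings SOS to phosphorylated receptors, rose by 1.31 in ID8 (SE 0.0729, adjusted p = 9.59e-10), and Nck1, an SH2 and SH3 adaptor, rose by 1.17 (SE 0.0757, adjusted p = 4.30e-09). Irs1, the insulin receptor substrate, fell to 2.02 ± 0.194 CPM in ID8_R, against 19.2 ± 0.947 in ID8_C (-3.25, SE 0.131, adjusted p = 4.94e-11), and shares 2822 bases of exon with Gm9747 on the opposite strand. Crk, an SH2 and SH3 adaptor, fell by 1.29 (SE 0.0716, adjusted p = 1.00e-09). In PMJ2R, Pik3cd, the leukocyte PI3 kinase subunit, fell to 7.09 ± 0.886 CPM in Mac_R, against 121 ± 2.77 in Mac_C (-4.03, SE 0.0753, adjusted p = 2.55e-17). Gab2, a docking protein below CSF1R, rose by 1.94 (SE 0.0668, adjusted p = 1.42e-14), and Akt2, a kinase below PI3 kinase, by 1.39 (SE 0.0461, adjusted p = 9.19e-15).

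Negative regulators were called 12 higher and 8 lower of 24 tested in ID8, and 11 higher and 9 lower of 23 in PMJ2R, against 7 and 11, and 4 and 15, with library totals, and 15 and 7, and 12 and 5, with length and GC trends removed. Beside them, with TMM factors, stand 38.4% higher and 42% lower of all genes in ID8, and 40.1% and 43.6% in PMJ2R. Ptpn6, the phosphatase SHP-1 that acts on CSF1R in myeloid cells, stood at 33.8 ± 1.99 CPM in Mac_R, against 307 ± 10.5 in Mac_C (-3.12, SE 0.0537, adjusted p = 1.28e-17), and shares 195 bases of exon with the antisense gene Gm20531. Stam, part of the endosomal sorting of receptors, rose in both lines, by 1.21 in ID8 (SE 0.0981, adjusted p = 3.95e-08) and by 2.25 in PMJ2R (SE 0.0656, adjusted p = 2.00e-15). Socs6, a suppressor of receptor kinases, rose by 1.16 (SE 0.0874, adjusted p = 1.94e-08) and 1.45 (SE 0.0700, adjusted p = 1.24e-12). Errfi1, the feedback inhibitor that binds the EGFR kinase domain, stood at 20.7 ± 2.04 CPM in ID8_R, against 52.0 ± 1.66 in ID8_C (-1.32, SE 0.0876, adjusted p = 5.37e-09), and Cblb, a ubiquitin ligase of receptors, rose by 0.90 (SE 0.0747, adjusted p = 4.99e-08). Lrig2, a membrane relative of the receptor inhibitor LRIG1, rose by 1.46 in PMJ2R (SE 0.0969, adjusted p = 1.10e-10).

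Proteases that release receptor and ligand ectodomains were called 6 higher and 4 lower of 12 tested in ID8, and 9 higher and 3 lower of 12 in PMJ2R, but 3 and 6, and 7 and 5, with library totals, and 7 and 3, and 8 and 1, with length and GC trends removed. The shares of all genes with TMM factors were 38.4% higher and 42% lower in ID8, and 40.1% and 43.6% in PMJ2R. Adam8 rose in PMJ2R by 1.75 (SE 0.0892, adjusted p = 2.12e-11), Adam9 by 0.97 (SE 0.0428, adjusted p = 3.63e-13), and Ncstn, which encodes nicastrin, by 0.83 (SE 0.0484, adjusted p = 1.76e-11). In ID8 the inactive rhomboids that carry ADAM17 to the surface split, Rhbdf1 higher by 1.00 (SE 0.0694, adjusted p = 8.69e-09) and Rhbdf2 lower, at 33.1 ± 1.87 CPM in ID8_R against 86.2 ± 2.93 in ID8_C (-1.37, SE 0.0746, adjusted p = 7.91e-10). Adam15, which shares 1263 bases of exon with the antisense gene 4731419I09Rik, rose by 1.13 in ID8 (SE 0.0860, adjusted p = 2.17e-08).

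Myeloid genes that act with CSF1R mostly fell in PMJ2R, where of 16 tested 5 were higher and 10 lower, or 3 and 13 with library totals, and their median was -1.71 beside -0.05 for all genes. With length and GC trends removed 6 were higher and 10 lower, and the median was -1.10 beside 0.08. Over all genes with TMM factors 40.1% were higher and 43.6% lower. The transcription factor genes Cebpa and Irf8 stood at 3.03 ± 0.551 and 3.51 ± 0.467 CPM in Mac_R, against 30.1 ± 1.98 and 26.7 ± 1.94 in Mac_C (-3.26, SE 0.115, adjusted p = 2.11e-14 and -2.86, SE 0.112, adjusted p = 7.19e-14). Csf2rb, the common chain of the GM-CSF and interleukin 3 receptors, changed by -2.68 (SE 0.0937, adjusted p = 1.79e-14), and Syk, a kinase below CSF1R and immune receptors, by -1.73 (SE 0.0668, adjusted p = 6.13e-14). By library totals, the 26 macrophage markers as a whole summed to 4000 to 4059 CPM in Mac_R and 3565 to 3702 CPM in Mac_C. TMM factors, 0.823 to 0.827 in Mac_R and 1.14 to 1.18 in Mac_C, were not applied to these sums. Of the 20 markers tested, 14 were higher and 4 lower with TMM factors but 8 higher and 8 lower with library totals. With length and GC trends removed 16 were higher and 4 lower. Their part in the fall of Csf1r was not tested. In ID8 7 of the myeloid genes were tested, 2 higher and 4 lower, or 1 and 5 with library totals and 2 and 4 with those trends removed. There Cebpa stood at 3.98 ± 0.667 CPM in ID8_R, against 25.9 ± 0.832 in ID8_C (-2.69, SE 0.121, adjusted p = 1.42e-10), and Runx1 fell by 1.74 (SE 0.0924, adjusted p = 6.53e-10). Maf fell by 0.73 (SE 0.0740, adjusted p = 4.10e-07) and Ets2 rose by 1.23 (SE 0.0711, adjusted p = 1.42e-09). Fewer cells in a state and less RNA per cell cannot be told apart in RNA of whole cultures. Epha6, Erbb2, Gas6, Tgfa, Il34, Cebpa, Maf, Runx1, Ncstn and Adam8 also share between 9 and 440 bases of exon with a gene on the opposite strand, and Csf2rb shares 62 with Mir7676-2 on its own strand.

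**Figure D5:**
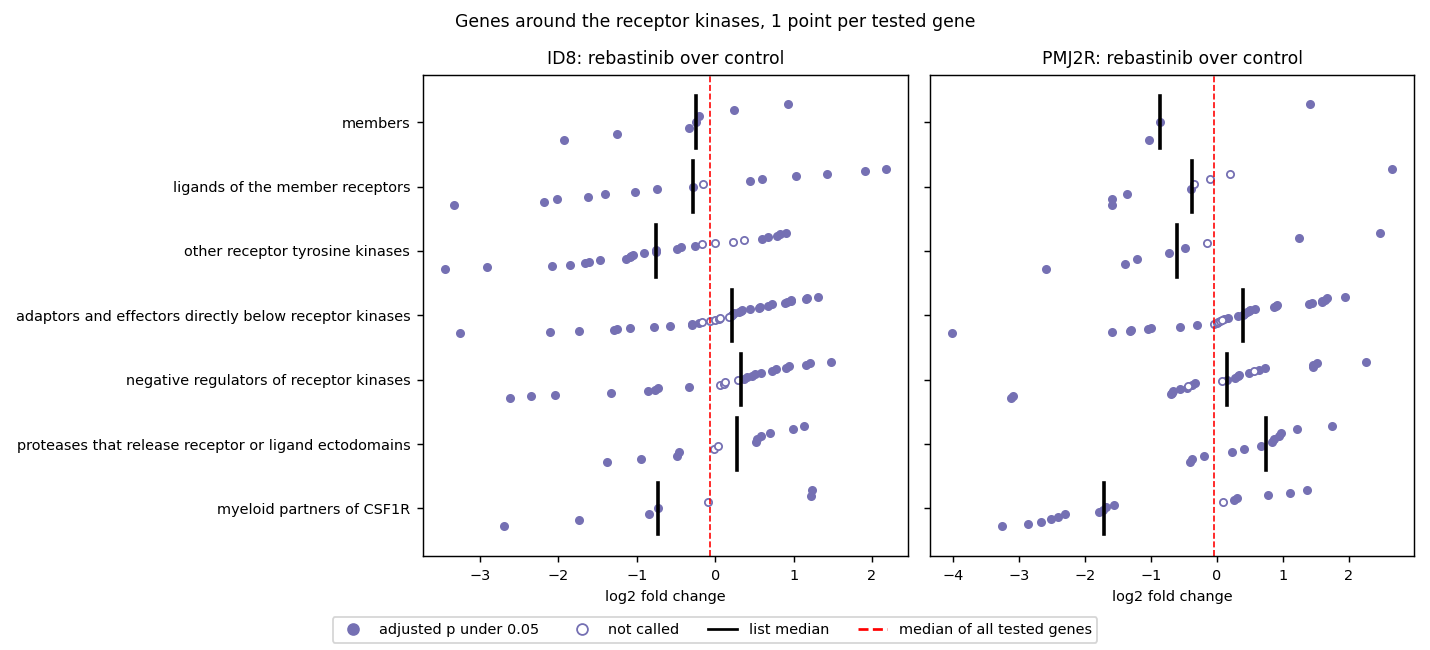
Log2 fold change of rebastinib over control for each tested gene of 7 lists, in ID8 on the left and PMJ2R on the right; filled points are called, open points are not, black lines are list medians and the red line is the median of all genes tested. Myeloid partners of CSF1R lie mostly left of the red line in PMJ2R. All points and calls drawn use TMM factors. With library totals, which are not drawn, the calls for adaptors, negative regulators and (in ID8) proteases are mostly lower.

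Genes whose pattern over the 12 libraries was closest to a member were found among 12820 genes by the root mean square distance of row-centred log2 CPM. For Csf1r they were Vmn2r96 (0.351), Sycp1 (0.368), Cd300c2 (0.377), Cacna1d (0.378) and Cxcr1 (0.391). The closest to Csf1 was Tcf24 (0.259), to Flt3 Bank1 (0.085), to Kit Lgr5 (0.323) and to Pdgfra Ptchd1 (0.283). Axl was closest to Mal2 (0.304), Met to Col1a1 (0.273) and Egfr to Lama5 (0.247). The distances describe 4 groups of 3 libraries.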

How the data were processed

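The authors deposited 1 table of unnormalised counts for 12 libraries. Per the submitters' processing notes, FastQC, STAR 2.6.1c, featureCounts, DESeq2 and GRCm38 were used by the authors, with no order or role given; the annotation, strand setting and handling of multiply mapped reads were not stated in them. Groups and replicate numbers came from the sample titles. Symbols, lengths and positions came from GENCODE vM21 (GRCm38), where 181 identifiers found no match.

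Counts were tested with edgeR 4.0.16 (R 4.3.3): TMM factors, default expression filter, robust quasi-likelihood test, Benjamini-Hochberg adjustment over all tested genes at 0.05. Contrasts were rebastinib against control in ID8 and in PMJ2R, the control lines, and the responses by an interaction over 12 libraries. Intervals are 1.96 SE. CPM used TMM factors of all 12 libraries; their ratios differed from the fitted fold changes by a median of -0.0615 to 0.11 (log2). Floors, count ratios and the CPM of the marker lists used library totals. Named genes were the members, all tested ligands, and up to 4 genes with the smallest p per list in each rebastinib comparison. Between control lines they were up to 4 genes per list with the largest absolute fold change. Erbb2, Erbb3, Tyro3 and Mst1r were added by name as relatives of the members. Some genes that this rule names are not reported here. Alternatives were DESeq2 1.42.0, limma-voom (limma 3.58.1), RLE, library totals, no filter, at least 5 CPM, a replicate block, removal of length and GC trends, and leaving out each library. The procedure was also run on simulated data in which few genes changed. Most genes were called in the real data, so that run cannot speak for their scaling. Members and lists were chosen with earlier results of these data known. Chemotherapy arms named in the series design are not analysed here.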

Additional observations from a re-analysis of the deposited data

Results flagged for a closer look

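The response to rebastinib differed between the lines, by the interaction test, for 9 of the members, ligands and neighbours that had more than 3 counts in every group. Axl, Flt3l, Pros1 and Egf met the same count rule and were not called. Such a call was common, since 52.4% of 16566 genes were called in that fit. The differences, PMJ2R minus ID8 on the log2 scale, were -1.85 for Csf1r, 1.55 for Csf1, 2.87 for Kit, -0.85 for Kitl, -1.88 for Pdgfa, 1.76 for Pdgfb, -0.90 for Gas6, 2.01 for Hbegf and 0.48 for Hmgxb3. Csf1r, Csf1, Pdgfa, Gas6, Hbegf and Hmgxb3 had called changes in both lines. The directions were opposite for Csf1r, Pdgfa and Csf1, though in ID8 Csf1 turned to 0.27 with length and GC trends removed. Gas6 was lower and Hbegf and Hmgxb3 higher in both lines, though in ID8 Hmgxb3 turned to -0.20 with library totals. The value of Kit rests on 9 and 5 counts in Mac_R and Mac_C. Differences for Pdgfra, Met and Egfr are not given, since a PMJ2R group held 3 counts or fewer.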

How the results depend on the processing

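The counts of called genes stayed within 1.5 times under every alternative. In ID8 the call was reversed with library totals for Axl (-0.20) and Hmgxb3 (-0.20), and with length and GC trends removed for Csf1 (0.27), Met (0.15), Egfr (0.39) and Tgfa (0.15). Between control lines Erbb3, not called with TMM factors, turned to 0.78 with these trends removed, and the share of called genes that were higher in Mac_C was 62.6% rather than 47.9%. The cause was not tested. Deviations of same-numbered rebastinib and control libraries from their group means had correlations of -0.09, -0.037 and -0.225 in ID8 and 0.015, -0.005 and 0.034 in PMJ2R. Not every library correlated best with its own number. With 3 libraries per group these values cannot show whether same-numbered libraries were handled together, and the main fits used no pairing. With the replicate number as a block 11418 genes were called in ID8, 11726 in PMJ2R, 8116 for the difference of responses and 12841 between control lines. Of the calls between control lines, that of Flt3l (0.46, adjusted p = 0.0471) was lost in 8 of 13 alternatives. Depth limits Kit, Pdgfra, Pdgfrb, Axl, Mertk, Met and Egfr in PMJ2R, each with at most 10 counts in a group.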
